A study of Mus musculus with 6 samples.

Results

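Guanylate-binding proteins (GBPs) are large GTPases that interferon-gamma induces strongly in many cell types. The genes described here are Gbp2 to Gbp11 of the mouse, chosen by symbol from the deposited count table: 10 genes of the 49315 in it, and all 10 were found. Total CD8+ T cells were the source of the RNA. They were sorted from the lymph nodes that drain the tumor, in female C57Bl6/J mice of genotype WT. The tumors were B16F10, a transplantable mouse melanoma line, which the sample labels spell B26F10. Treatment was a single dose, given once tumors measured 50 to 100 mm3, and nodes were taken on day 5. The monotherapy group (n = 3) received HCW9218, which the series title describes as a complex of TGF-βRII and IL-15, under the skin. The combination group (n = 3) received HCW9218 under the skin together with an anti-PD1 antibody into the peritoneum. Both groups therefore carry the tumor and HCW9218, no untreated group is analysed here, and the labels give neither age nor dose. The labels do not say whether each library came from 1 mouse, so p-values measure the spread between these libraries. Libraries held 34568074 to 40101346 counts.

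GBPs belong to the dynamin superfamily. They assemble on the membranes of vacuoles that hold pathogens and on bacteria in the cytosol, together with the immunity-related GTPases and the autophagy conjugation machinery, and they help to activate inflammasomes. The chain that induces them runs from interferon-gamma through its receptor and the kinases JAK1 and JAK2 to transcription factors that include IRF1. Their promoters are known for a pair of elements, the interferon-stimulated response element (ISRE), bound by IRF factors, and the gamma-activated site (GAS). In CD8+ T cells they are among the genes that respond to interferon.

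The genes lie in 2 clusters. On chromosome 3 of GRCm38, in the order Gbp5, Gbp7, Gbp3 and Gbp2, they run along the plus strand from 142493978, the start of Gbp5, to 142638008, the end of Gbp2. On chromosome 5, in the order Gbp8, Gbp9, Gbp4, Gbp10, Gbp6 and Gbp11, they run along the minus strand from 105014150 to 105346472. Gbp10 (ENSMUSG00000105096) spans 105215699 to 105239533 and Gbp6 (ENSMUSG00000104713) spans 105270702 to 105293698. The chromosome 5 genes are close copies. Over the aligned bases of their longest annotated coding sequences, the 15 pairs within that cluster were 90.23% to 98.36% identical, the 6 pairs within the chromosome 3 cluster 64.42% to 78.32%, and the 24 pairs between clusters 63.44% to 76.62%. Gbp6 and Gbp10 were the closest pair, with 1803 of 1833 aligned coding bases the same. The first 60 coding bases of 6 members, from the annotated transcripts of GENCODE M21, show how little separates the chromosome 5 genes. Capitals mark bases that differ from the Gbp10 base at the same position.
Gbp10: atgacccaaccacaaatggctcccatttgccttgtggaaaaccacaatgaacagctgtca
Gbp6: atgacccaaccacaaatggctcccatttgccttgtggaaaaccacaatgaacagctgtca
Gbp4: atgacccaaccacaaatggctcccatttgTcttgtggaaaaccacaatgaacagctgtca
Gbp9: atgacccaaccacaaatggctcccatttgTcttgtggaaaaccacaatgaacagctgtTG
Gbp8: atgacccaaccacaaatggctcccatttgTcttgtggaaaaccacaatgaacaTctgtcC
Gbp2: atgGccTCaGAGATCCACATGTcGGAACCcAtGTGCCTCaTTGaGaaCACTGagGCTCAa
Gbp6 had 0 differences from Gbp10 in this stretch, Gbp4 had 1, Gbp8 and Gbp9 had 3 each, and Gbp2 of the other cluster had 44. The stretches were not aligned, so the 44 of Gbp2 include bases that are only shifted in position. Over their aligned coding bases Gbp2 and Gbp10 were 63.55% identical.

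This closeness bears on what a count per gene means. Of all stretches of 50 bases in the Gbp10 transcripts, 76.2% also occur in another member, mostly Gbp6, which alone holds 73.3% of them. For Gbp6 the share was 49.9%, for Gbp11 19.2%, for Gbp8 18.1%, for Gbp9 8.05% and for Gbp4 7.53%. It was 3.75% for Gbp3, 2.26% for Gbp7, and 0% for Gbp2 and Gbp5. With stretches of 100 bases, 60.9% of Gbp10 and 37.3% of Gbp6 still occur in another member. The treatment of reads with several matches is not given in the sources used here, so the split of counts between Gbp6 and Gbp10 is uncertain, and that within the rest of the chromosome 5 cluster less so.

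**Figure D1:**
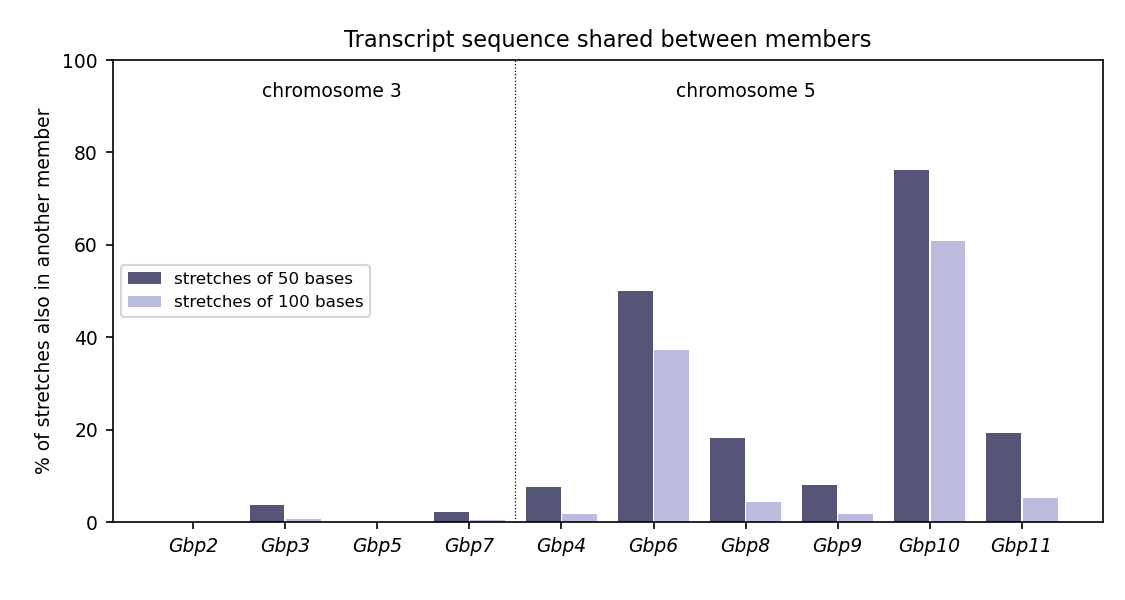
Share of transcript stretches of 50 and of 100 bases (bars, percent of all stretches of the gene) that also occur in another of the 10 genes. Gbp10 and Gbp6 stand above the rest at 76.2% and 49.9% for 50 bases, and the chromosome 3 genes are at 3.75% or less.

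A further overlap concerns the same pair. The annotated gene Gm43302 lies on the same strand across Gbp10 and Gbp6, and 3518 of its 4310 exon bases are also exon bases of one or the other. These make up 1792 of 3873 exon bases of Gbp10 and 1726 of 5954 of Gbp6. Gm43302 had 10, 33 and 10 counts in the monotherapy libraries and 19, 22 and 18 in the combination libraries, against 1007 to 2743 for Gbp10. With so few counts on Gm43302, reads on the shared bases were as a rule not credited to it. Whether they were credited to Gbp10 and Gbp6 alone or left out is not given in the sources used here. If they were left out, the count of Gbp10 rests on 2081 exon bases. Gbp7 shares 637 of its 5614 exon bases with the annotated gene Gm43802 on the same strand, and 10.5% of its stretches of 50 bases occur there. Gbp8, Gbp9 and Gbp4 share a start region of about the same small size, 61 exon bases of Gbp8 and Gbp4 and 60 of Gbp9.

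Promoter sequence was at hand for the 4 chromosome 3 members, from RefSeq on GRCm38.p6, as 250 bases before to 50 bases after each start, with 2 entries for Gbp3. The motifs searched on both strands were GAAA and GAAA with any 2 bases between them for the ISRE and TTCNNNGAA for the GAS, which can overlap each other. Each of the 4 genes had an ISRE match in a promoter. Among all 32851 promoters of this length, 3.44% held the ISRE letters, 8.30% the GAS letters and 0.454% both. Gbp5 and Gbp7 also had 2 GAS matches each, while Gbp2 and Gbp3 had none in these windows. The sequences of Gbp2 and Gbp3, the chromosome 3 genes with the largest and the smallest difference between treatments, and of Gbp7, which holds both motifs, are given 5′ to 3′ along the plus strand, with motif matches in capitals.
Gbp2, chr3:142620413-142620712: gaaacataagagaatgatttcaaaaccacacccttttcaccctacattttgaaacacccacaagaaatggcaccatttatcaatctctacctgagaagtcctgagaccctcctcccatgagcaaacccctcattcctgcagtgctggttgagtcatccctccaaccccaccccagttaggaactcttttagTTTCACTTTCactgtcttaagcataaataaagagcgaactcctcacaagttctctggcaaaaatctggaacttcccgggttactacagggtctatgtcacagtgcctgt
Gbp3, chr3:142559794-142560093: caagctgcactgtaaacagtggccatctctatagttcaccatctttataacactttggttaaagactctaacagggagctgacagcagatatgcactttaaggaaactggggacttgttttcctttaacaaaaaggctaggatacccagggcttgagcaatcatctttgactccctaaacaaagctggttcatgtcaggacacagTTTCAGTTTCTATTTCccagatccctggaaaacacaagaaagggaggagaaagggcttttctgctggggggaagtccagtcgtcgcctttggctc
Gbp7, chr3:142530086-142530385: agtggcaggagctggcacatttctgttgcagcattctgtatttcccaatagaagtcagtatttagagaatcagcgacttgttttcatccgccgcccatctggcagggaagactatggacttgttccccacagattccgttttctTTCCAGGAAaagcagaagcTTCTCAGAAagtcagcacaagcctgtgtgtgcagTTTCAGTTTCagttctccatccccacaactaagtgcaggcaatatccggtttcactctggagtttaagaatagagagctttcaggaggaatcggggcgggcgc
The ISRE matches read in the reverse orientation here and begin 59 bases before the start in Gbp2, 45 and 39 in Gbp3 (overlapping each other) and 53 in Gbp7. The promoter of Gbp2b, a close relative of Gbp2 that is outside the 10 genes, also held the ISRE letters, in TTTCACTTTC, the same 10 bases as in Gbp2. Gbp2b had 1 to 6 counts per library and did not pass the filter on low counts.

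All members passed that filter. Levels are given in CPM, counts relative to the library total after TMM scaling, which corrects for differences in library composition. Compared between genes per kilobase of annotated exon, the monotherapy levels were highest for Gbp2, at 107.7 ± 10.6 CPM per kilobase (SD, n = 3). Gbp9 followed at 82.5 ± 12.5, and its highest library just reached the lowest library of Gbp2. Gbp4 was at 63.1 ± 6.87, Gbp7 at 48.6 ± 2.32, Gbp8 at 43.2 ± 1.94 and Gbp6 at 28.4 ± 3.96 CPM per kilobase. Gbp3 and Gbp10, at 18.5 ± 1.87 and 16.7 ± 1.64, overlapped in their libraries, and Gbp5, at 11.1 ± 0.409, and Gbp11, at 2.51 ± 0.137, stood below them. Over their unshared exon bases alone Gbp10 would be at 31.0 and Gbp6 at 40.0 CPM per kilobase, so that Gbp10 would stand above Gbp3 and still below Gbp6. In the combination the order was the same except that Gbp8 and Gbp7 changed places, at 39.0 ± 1.45 and 37.9 ± 7.69 CPM per kilobase with overlapping libraries. Gbp10 and Gbp5, at 9.002 ± 0.957 and 8.64 ± 1.35, then overlapped as well, as did Gbp4 with Gbp8 and Gbp6 with Gbp3.

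The comparison of both groups asks what the PD1 antibody added to HCW9218. GBP transcripts were lower with the antibody, with a sum at 0.747 of the monotherapy mean. The sum of the 10 genes was 77482, 72729 and 78516 counts in monotherapy replicates 1, 2 and 3 and 43075, 63085 and 55492 counts in combination replicates 1, 2 and 3. Scaled, these were 2158, 1848 and 1894 CPM against 1309, 1664 and 1437 CPM. Every combination library lay below every monotherapy library. The means were 1967 ± 167 and 1470.0 ± 179.8 CPM (SD, n = 3 each), a log2 ratio of -0.42, against a pooled SD between libraries of 0.15 on the log2 scale. Since the members were chosen as a list, the sum is given as a description with no test. In bulk RNA of a sorted population, fewer cells that express a gene and less RNA per cell cannot be told apart.

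The ratio was alike in both clusters. The chromosome 3 genes summed to 699.7, 635.0 and 699.3 CPM in monotherapy and 473.9, 607.9 and 438.6 CPM in the combination, and the chromosome 5 genes to 1458, 1213 and 1195 against 834.9, 1056 and 998.8 CPM. Their log2 ratios were -0.42 and -0.42. Combination replicate 2 was the highest of its group in both sums, while replicate 3 was the lowest on chromosome 3 and replicate 1 the lowest on chromosome 5.

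**Figure D2:**
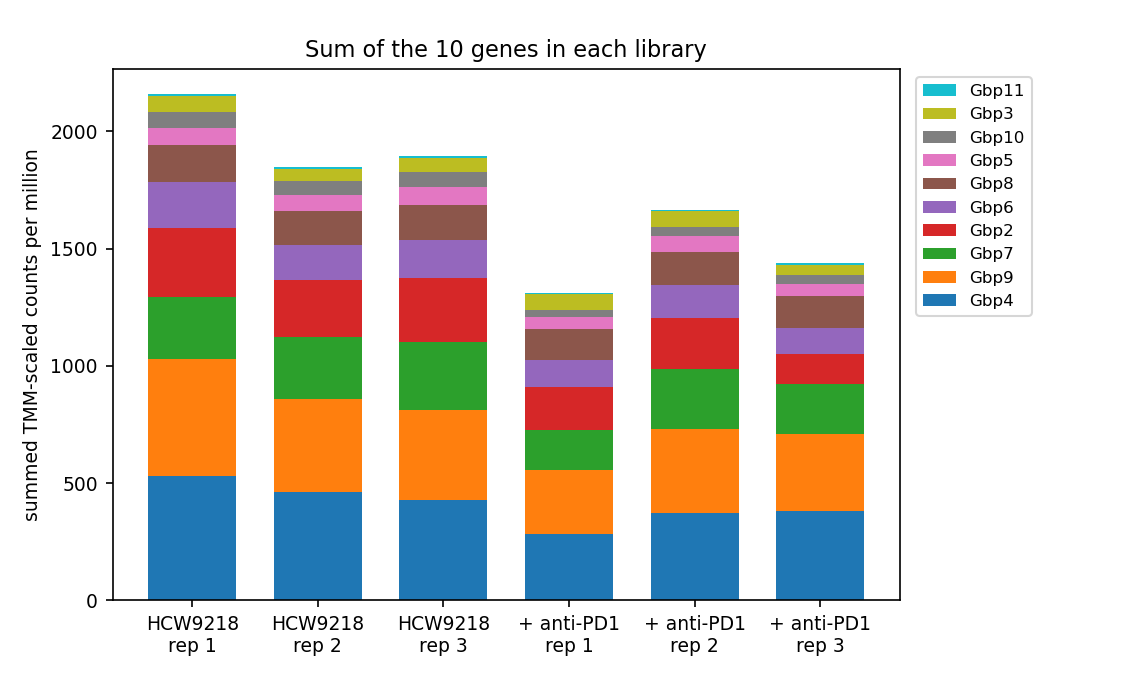
Stacked TMM-scaled CPM of the 10 genes in each of the 6 libraries (bars start at 0; colors are genes). The monotherapy bars reach 1848 to 2158 and the combination bars 1309 to 1664.

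Gene by gene, 10 of 10 members had a log2 fold change below 0 (50.1% of all 15142 tested genes did), with a median of -0.41 against -0.00 over all tested genes. In 9 of 10, all but Gbp3, the 3 combination libraries lay below the 3 monotherapy libraries, which was so for 7.54% of all tested genes. In 0 of 10 did they lie above (7.17% of all tested genes). With library totals in place of TMM it was so in 8, since Gbp8 then overlapped. In edgeR's quasi-likelihood test, adjusted over all tested genes, 1 member fell, Gbp10, and 0 rose (0.132% and 0.951% of all tested genes). At an unadjusted p under 0.05, 6 were lower, namely Gbp2, Gbp4, Gbp5, Gbp6, Gbp9 and Gbp10 (3.39% of all tested genes), and 0 were higher (4.61%). DESeq2 and limma-voom also called Gbp10 alone as lower (0.296% and 0.0925% of their genes) and 0 as higher (1.29% and 0.819%). With no filter on low counts edgeR called 2 lower, Gbp2 and Gbp10, and 0 higher (0.347% and 1.04% of its genes), and with the replicate number as a block it called 1 lower, Gbp10, and 0 higher (0.376% and 1.53%). The copies share sequence, and may share reads, and all 10 genes share libraries, so these counts are not independent of each other.

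Gbp10, of the cluster on chromosome 5, had 70.0, 57.6 and 66.2 CPM in monotherapy replicates 1, 2 and 3 and 30.6, 37.3 and 36.7 CPM in the combination. The highest combination library was well below the lowest monotherapy library. It fell by 0.89 ± 0.14 (SE) on the log2 scale (edgeR adjusted p = 0.0176; 2.36e-05 to 0.137 over the alternatives), from 64.6 ± 6.35 to 34.9 ± 3.71 CPM (SD, n = 3 each). Without monotherapy replicates 1, 2 and 3 the adjusted p in edgeR was 0.137, 0.0661 and 0.111, and without combination replicate 2 it was 0.0917, so the call needed each of those libraries, while the log2 fold change stayed between -0.97 and -0.78 over all left-out libraries.

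Gbp6, the close copy of Gbp10, had 195.5, 149.95 and 162.0 CPM in monotherapy and 115.3, 143.0 and 111.1 CPM in the combination. Its groups did not overlap, and combination replicate 2 lay just under monotherapy replicate 2. The log2 fold change was -0.46 ± 0.16 (SE; edgeR adjusted p = 0.382), so it did not pass. Since the treatment of reads that match both genes is not given, their sum is given too. Gbp6 and Gbp10 together were at 265.5, 207.5 and 228.2 CPM against 145.9, 180.3 and 147.8 CPM, a log2 ratio of -0.56. The ratio of Gbp10 to Gbp6 was 0.358, 0.384 and 0.408 in monotherapy and 0.265, 0.261 and 0.330 in the combination. Gbp10 was thus lower relative to its copy in every combination library, a comparison made after the values were seen and not tested.

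Gbp4 and Gbp9 are the most abundant members by count. Gbp4 was at 528.9, 461.7 and 427.7 CPM in monotherapy and 282.4, 370.2 and 379.0 CPM in the combination. Gbp9 was at 501.2, 394.7 and 384.5 CPM against 273.9, 360.7 and 331.1 CPM. Both were highest in monotherapy replicate 1 and lowest in combination replicate 1, with log2 fold changes of -0.46 ± 0.17 and -0.41 ± 0.17 (SE; edgeR adjusted p = 0.453 and 0.576).

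Gbp8 and Gbp11 complete that cluster. Gbp8 was at 155.6, 142.2 and 148.2 CPM in monotherapy and 129.2, 139.1 and 134.9 CPM in the combination, close together in both groups. Its log2 fold change of -0.15 ± 0.12 (SE; edgeR adjusted p = 0.916) was the smallest in the cluster. Gbp11 was at 7.19, 6.63 and 6.49 CPM against 3.56, 5.67 and 5.93 CPM, with a log2 fold change of -0.42 ± 0.22 (SE; edgeR adjusted p = 0.736). Combination replicate 1 was the lowest.

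On chromosome 3, Gbp2, which coats vacuoles that hold the parasite Toxoplasma, was at 295.8, 242.8 and 274.1 CPM in monotherapy and 184.7, 215.9 and 129.1 CPM in the combination. All combination libraries were lower, and replicate 3 stood below the other two. Its log2 fold change of -0.62 ± 0.19 (SE) was the second largest of the family and did not pass (edgeR adjusted p = 0.311). With no filter on low counts it did (edgeR adjusted p = 0.0357; 0.0357 to 0.743 over the alternatives), and without combination replicate 3 the log2 fold change was -0.44.

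Gbp7, which in macrophages helps to assemble the phagocyte oxidase, was at 263.9, 267.2 and 287.9 CPM in monotherapy and 169.9, 256.2 and 212.9 CPM in the combination. Combination replicate 2 lay just under the lowest monotherapy library. Gbp5, known for promoting the NLRP3 inflammasome, was at 73.8, 70.9 and 76.3 CPM against 52.6, 67.7 and 51.7 CPM, again with combination replicate 2 closest to monotherapy. Their log2 fold changes were -0.36 ± 0.17 and -0.36 ± 0.14 (SE; edgeR adjusted p = 0.654 and 0.507). Gbp3 was the exception. It was at 66.3, 54.1 and 61.0 CPM in monotherapy and 66.7, 68.1 and 44.8 CPM in the combination, so that the combination held both the highest and the lowest library, and the log2 fold change was -0.01 ± 0.18 (SE; edgeR adjusted p = 0.994). Its sign turned without monotherapy replicate 1 (0.07) and without combination replicate 3 (0.16).

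**Figure D3:**
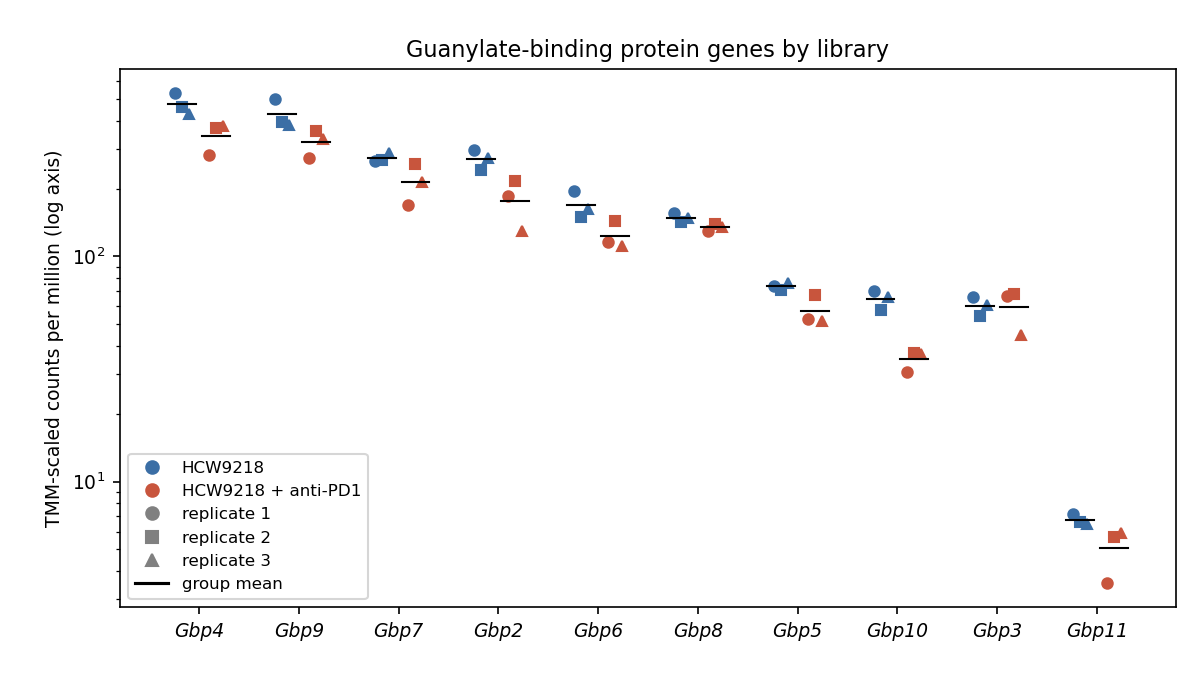
TMM-scaled CPM of each gene (log axis) in the 3 monotherapy (blue) and 3 combination (red) libraries, with replicate numbers as symbols and group means as lines. The red points lie below the blue ones for every gene but Gbp3.

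The make-up of the family sum was also compared between groups. Gbp10 made up 3.24%, 3.12% and 3.49% of the sum in monotherapy and 2.34%, 2.24% and 2.55% in the combination. The share of Gbp8 went the other way, at 7.21%, 7.70% and 7.82% against 9.87%, 8.36% and 9.39%. Its own level did not rise, at a mean of 148.6 CPM in monotherapy and 134.4 CPM in the combination. The shares of Gbp10 and Gbp8 did not overlap between groups, and those of the other 8 did. By CPM, all combination libraries were lower in 7.54% of all tested genes and higher in 7.17%. Little is therefore read from the separation of these shares. Gbp2 had 8.98% of the sum in combination replicate 3 and 12.98% to 14.5% in the other 5 libraries. Differences between members were not tested.

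The interferon-gamma pathway upstream of these genes gave a mixed picture. Of 8 tested ligands, receptors and kinases, 0 rose and 0 fell in edgeR, and their median log2 fold change was 0.01. At an unadjusted p under 0.05, 1 of them was higher, Ifngr1, and 0 were lower (4.61% and 3.39% of all tested genes). Ifng, the ligand gene itself, was at 9.78, 11.6 and 8.61 CPM in monotherapy and 12.2, 10.4 and 7.33 CPM in the combination, with overlapping groups and a log2 fold change of -0.00 ± 0.21 (SE). Ifngr1, the ligand-binding receptor chain, was at 206.3, 185.7 and 168.2 CPM against 362.1, 334.4 and 242.4 CPM. Every combination library was above every monotherapy library, with a log2 fold change of 0.75 ± 0.18 (SE; edgeR adjusted p = 0.118; 3.38e-03 to 0.550 over the alternatives), and DESeq2 called it (adjusted p = 5.88e-03). Ifngr2, the signalling chain, had the opposite sign, at 29.0, 31.2 and 28.1 CPM against 26.3, 23.6 and 23.0 CPM (edgeR adjusted p = 0.631).

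Among 11 tested transcription factors of the pathway, 11 had a log2 fold change below 0 (50.1% of all tested genes did). None passed in edgeR. The log2 fold changes ran from -0.67 to -0.01, with a median of -0.27, so some lay close to 0. At an unadjusted p under 0.05, 3 were lower and 0 were higher (3.39% and 4.61% of all tested genes). Of the pair named here DESeq2 called Irf1. Irf1, an activator of GBP genes, was at 593.6, 555.8 and 511.3 CPM in monotherapy and 375.3, 340.3 and 327.3 CPM in the combination, a log2 fold change of -0.67 ± 0.15 (SE; edgeR adjusted p = 0.0884; 5.35e-04 to 0.421 over the alternatives). Irf7, a factor of the type I interferon response, had a log2 fold change of -0.52 ± 0.15 (SE; edgeR adjusted p = 0.226). In both genes the groups were apart. Of 7 inhibitors of interferon signalling 0 passed and 6 lay below 0 (50.1% of all tested genes did), with a median of -0.09. By the unadjusted p 2 of them were lower and 0 were higher (3.39% and 4.61% of all tested genes). Socs3 and Socs1, which block JAK kinases, had log2 fold changes of -0.63 ± 0.17 and -0.50 ± 0.19 (SE; edgeR adjusted p = 0.186 and 0.471). Socs3 passed in DESeq2 (adjusted p = 0.0487) and, with no filter on low counts, in edgeR (adjusted p = 0.0179), with a range of 0.0179 to 0.728 over the alternatives.

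The immunity-related GTPases, partners of the GBPs on vacuoles, had a median log2 fold change of -0.46 over 14 tested genes, close to the -0.41 of the GBPs. All 14 lay below 0 (50.1% of all tested genes did) and 1 fell (0.132% of all tested genes), the predicted gene Gm12185. It fell by 0.92 ± 0.16 on the log2 scale (edgeR adjusted p = 0.0316; 9.71e-06 to 0.210 over the alternatives). That call was lost without monotherapy replicates 1, 2 and 3 (adjusted p = 0.210, 0.0694 and 0.173 in edgeR) and without combination replicates 1 and 2 (0.0629 and 0.0595). At an unadjusted p under 0.05, 7 of the 14 were lower and 0 were higher (3.39% and 4.61% of all tested genes).

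The lists of machinery that GBPs work with had medians closer to 0, though single genes did not. Of 10 genes of the autophagy conjugation system 0 passed, with a median of 0.03. Of 5 enzymes of the prenylation pathway, by which some GBPs gain lipid anchors, 0 passed, with a median of -0.01. None of these genes had an unadjusted p under 0.05, where 3.39% of all tested genes were lower and 4.61% higher. Those with the smallest p were Map1lc3a and Gabarapl2 of the first list, at log2 fold changes of -0.50 ± 0.27 and 0.30 ± 0.18 (SE; edgeR adjusted p = 0.746 and 0.815). In the second list they were Rce1 and Fnta, at -0.17 ± 0.13 and 0.13 ± 0.15 (SE; edgeR adjusted p = 0.893 and 0.948). Of 6 tested inflammasome genes 0 passed and 5 lay below 0 (50.1% of all tested genes did), with a median of -0.17. Gsdmd, the pore-forming protein, was at 73.0 ± 7.26 and 62.0 ± 1.24 CPM (SD, n = 3 each; edgeR adjusted p = 0.736). Nlrp1b, an inflammasome sensor of low level here (0.820 to 1.70 CPM), had a log2 fold change of -0.56 ± 0.31 (SE; edgeR adjusted p = 0.762). Of 9 giant and dynamin-like GTPases 0 passed and 9 lay below 0 (50.1% of all tested genes did), with a median of -0.23. By the unadjusted p 1 of them was lower, Mx2, and 0 were higher (3.39% and 4.61% of all tested genes). Mx2 and Gvin1 had log2 fold changes of -0.78 ± 0.33 and -0.45 ± 0.23 (SE; edgeR adjusted p = 0.559 and 0.702). With no filter on low counts Mx2 passed (edgeR adjusted p = 0.0478; 0.0478 to 0.9998 over the alternatives).

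**Figure D4:**
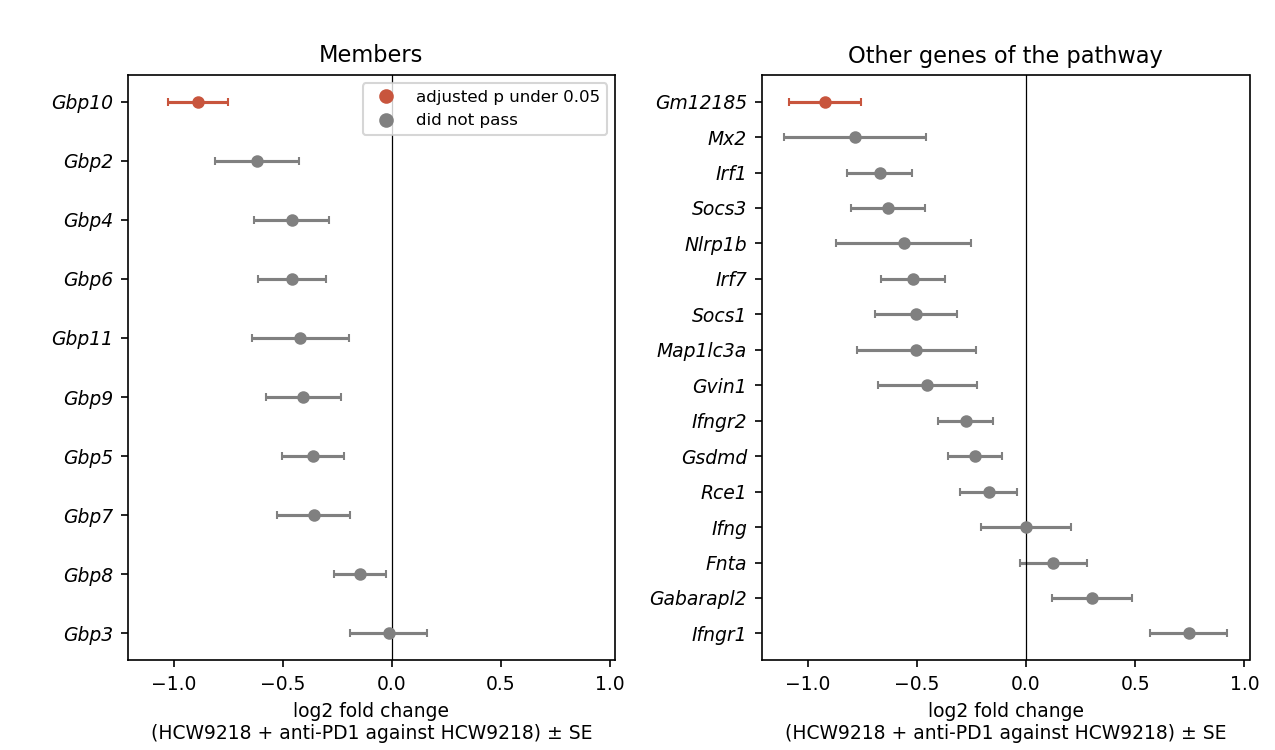
Log2 fold change of combination against monotherapy with its SE for the 10 genes (left) and the named genes of the pathway (right); red points passed the adjusted threshold. Gbp10 at -0.89 and Gm12185 at -0.92 are the red points, and Ifngr1 at 0.75 lies farthest to the right.

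Among 9491 genes of at least 5 CPM outside the family, the profiles most like that of the summed GBPs over the 6 libraries were those of Ubox5, Zfp287, Nedd9, Rsbn1 and Top1mt, with root mean square differences of 0.049 to 0.065 on the centred log2 scale. Nedd9, for one, was at 183.5, 172.4 and 157.6 CPM in monotherapy and 117.2, 154.0 and 125.4 CPM in the combination. Gbp9 and Gbp6 were the members closest to the sum, at 0.070 and 0.076, and Gbp3 the farthest, at 0.285. Each member is itself part of that sum.

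Against the labelled cell type, Cd8a was at 1421 to 1646 CPM and Cd4 at 0.425 to 3.06 CPM. The GBPs are expressed by many cell types, so markers of other cells are set beside them. The 10 B cell markers, all of which passed the filter on low counts, summed to 46.3 to 69.3 CPM in monotherapy and 49.6 to 89.3 CPM in the combination, and the 10 macrophage and monocyte markers, of which 3 passed, to 8.41 to 20.9 and 11.2 to 14.3 CPM. Dendritic cell markers, which include Ccr7, a gene of T cells too, summed to 344.0 to 369.6 and 292.0 to 366.8 CPM. The 7 endothelium and stroma markers, of which 5 passed, summed to 176.9, 143.0 and 136.7 CPM in monotherapy replicates 1, 2 and 3. In the combination they summed to 124.0, 141.6 and 120.5 CPM, and their part in the GBP values was not tested. Each of these lists overlapped between groups. No marker of these lists was at 0 in all libraries. The 7 natural killer cell markers, several of which effector CD8 cells express, summed to 393.8 to 478.4 and 512.1 to 665.1 CPM and were higher in every combination library, and their part in the GBP values was not tested. The 7 melanocyte markers, of which 2 passed the filter, summed to 21.9 to 28.7 CPM in monotherapy and 30.3 to 54.7 CPM in the combination, again higher in every combination library. The melanocyte genes Dct and Tyrp1 together had 1, 0 and 0 counts in monotherapy and 0, 582 and 743 in combination replicates 1, 2 and 3. The part of these transcripts in the GBP values was not tested.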

How the data were processed

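Total RNA was extracted with Trizol and mRNA was enriched with oligo(dT) beads, per the labels' protocols. The submitters' processing notes name STAR 2.5.2b, Subread 1.5.2 with featureCounts, and DESeq2. Settings, strandedness and build: not given in the sources used here. Deposited counts are whole reads per gene, not normalized, and were the same in the series table and in each of the 6 libraries' own files. A further 6 columns matched no sample and were not used, nor were the deposited normalized and regularized-log tables. All 10 members had the same coordinates in GENCODE M21 (GRCm38), as did 91.4% of the 48970 genes found there.

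Counts were fitted in R 4.3.3 with edgeR 4.0.16: filterByExpr by group (15142 genes), TMM factors of 0.901 to 1.12 and its quasi-likelihood test for the combination relative to monotherapy, without covariates, with Benjamini-Hochberg adjustment over all tested genes and a threshold of 0.05. Each SE was taken as the size of the log2 coefficient before shrinkage over the root of its F statistic. Alternatives were other scalings and filters, DESeq2 1.42.0, limma-voom (limma 3.58.1), the replicate number as a block, and leaving out each library. The members and lists were chosen with earlier results of these data known. Named were all members, Gbp2b, each pathway list's members past the threshold or else the 2 with the smallest p, 5 fixed interferon genes (1 is not reported here) and the 5 most similar profiles; Gm43302 was added after its overlap was seen. Chi-square per gene between pairs of libraries ran from 9.97 to 296, so no pair agreed within sampling noise.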

Additional observations from a re-analysis of the deposited data

How the results depend on the processing

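The log2 ratio of the GBP sum was between -0.43 and -0.41 under the other scalings, and between -0.50 and -0.32 with each library left out in turn, always within 1 pooled SD of -0.42. With no filter on low counts 2 members were lower (Gbp2 and Gbp10), and over the left-out libraries 0 to 1 were. No member was higher under any of the 14 alternatives. Of 140 member values under the alternatives 133 kept their sign and side of the threshold, 4 lost the call (Gbp10) and 1 gained it (Gbp2). The other 2 changed sign, namely Gbp3, at 0.07 when monotherapy replicate 1 was left out and 0.16 when combination replicate 3 was (-0.11 to 0.16 over the left-out libraries). Of 224 values of the other named genes 10 gained a call (Ifngr1 in 4 alternatives, Irf1 in 3, Socs3 in 2 and Mx2 in 1) and 5 lost it (all Gm12185). Another 3 changed sign, all of Ifng, at 1.3e-03 with RLE scaling, 0.12 when monotherapy replicate 2 was left out and 0.18 when combination replicate 3 was (-0.15 to 0.18 over the left-out libraries). The cause of these changes was not tested. Deviations of same-numbered libraries from their group means had r of 0.145, -0.055 and 0.279 across genes, against -0.229 to 0.119 for differently numbered ones. The values of 0.145 and 0.279 were thus above all differently numbered pairs, and that of -0.055 was not. The number was not taken as a pairing in the main fit, and whether it marks one was not tested. With the replicate block 0 members were higher and 1 was lower, Gbp10, at -0.89 (adjusted p = 2.23e-03), and the calls over all genes went from 20 to 57 lower and from 144 to 231 higher. Without the filter they were 113 and 340, and in DESeq2 59 and 258.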
